A study of Rattus norvegicus with 6 samples.

Results

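The circadian clock genes of the rat renal cortex, the outer layer of the organ, were examined after 4 weeks of 1-amino-2,4-dibromoanthraquinone, a brominated anthraquinone called ADBAQ here. The 10 genes were Bmal1 (also written Arntl), Clock, Npas2, Per1, Per2, Per3, Cry1, Nr1d1, Dbp and Tef, taken by name and not by measured value. They were read by 24 of the 61657 probes of the array, those whose accession is a RefSeq transcript of 1 of these genes, and all 10 were among the 12007 genes tested of 15284 matched. The 3 control rats received corn oil and the 3 treated rats received ADBAQ at 1000 mg/kg/day. All 6 were Sprague-Dawley males bought at an age of 5 weeks, fed a basal diet and kept on 12 h of light and 12 h of dark. RNA of each rat was hybridised alone to a 1-colour Agilent array. The sources used here do not give the hour at which tissue was taken.

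In the mammalian clock, BMAL1 pairs with CLOCK or its relative NPAS2 and switches on the Period and Cryptochrome genes, whose proteins then block the pair. A further loop runs through the nuclear receptor REV-ERBalpha, encoded by Nr1d1, which represses Bmal1. DBP and TEF carry the rhythm to output genes. The kidney has such a clock of its own, and in most tissues Bmal1 and Npas2 peak at the opposite time of day from Nr1d1, Dbp and Tef. Per1 is in addition induced by glucocorticoids through their receptor and by cAMP signalling.

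Promoter sequences can hold the elements through which the clock proteins act, and 4 are given because they hold letters of such elements. RefSeq promoter entries on assembly GRCr8, with 250 bases before and 50 after the start, were present for 9 of the 10 genes (11 entries), and all windows of 300 bases served as background. Capitals mark matches on either strand to the ROR element bound by ROR and REV-ERB receptors, CACGTG (the E-box bound by CLOCK and BMAL1), its variant CACGTT, and TTATGTAA (1 form of the D-box bound by DBP and TEF).

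Bmal1, chr1:176766078-176766377, plus strand: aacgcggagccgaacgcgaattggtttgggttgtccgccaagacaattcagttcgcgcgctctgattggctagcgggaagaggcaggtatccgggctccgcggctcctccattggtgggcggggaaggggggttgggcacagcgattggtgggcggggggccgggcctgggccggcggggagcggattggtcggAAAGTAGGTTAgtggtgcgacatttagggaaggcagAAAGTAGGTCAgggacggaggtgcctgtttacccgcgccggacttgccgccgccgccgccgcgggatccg
Per2, chr9:99496944-99497243, minus strand: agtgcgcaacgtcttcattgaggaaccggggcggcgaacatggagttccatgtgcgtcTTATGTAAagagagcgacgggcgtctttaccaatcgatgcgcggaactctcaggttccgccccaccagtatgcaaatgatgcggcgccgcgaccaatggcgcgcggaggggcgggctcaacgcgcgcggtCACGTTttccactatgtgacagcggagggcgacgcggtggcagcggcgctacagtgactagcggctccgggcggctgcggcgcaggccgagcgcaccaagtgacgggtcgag
Nr1d1, entry 2, chr10:84229405-84229704, minus strand: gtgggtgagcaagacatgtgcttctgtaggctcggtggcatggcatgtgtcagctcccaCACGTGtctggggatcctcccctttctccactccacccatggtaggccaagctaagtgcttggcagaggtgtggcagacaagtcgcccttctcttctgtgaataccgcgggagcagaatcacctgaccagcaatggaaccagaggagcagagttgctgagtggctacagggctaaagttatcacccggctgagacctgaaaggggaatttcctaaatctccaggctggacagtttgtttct
Tef, chr7:115206577-115206876, plus strand: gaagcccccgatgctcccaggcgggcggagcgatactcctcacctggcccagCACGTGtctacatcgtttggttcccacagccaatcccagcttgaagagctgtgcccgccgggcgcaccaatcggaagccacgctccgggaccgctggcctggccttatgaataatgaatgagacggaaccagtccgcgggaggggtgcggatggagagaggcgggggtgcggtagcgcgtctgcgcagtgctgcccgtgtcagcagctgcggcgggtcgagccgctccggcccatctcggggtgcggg

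The Bmal1 window held this form of the ROR element at positions -56 and -20 from the start, with T and C at N. Of 33469 promoters, 12 (0.0359%) held it, a share for these letters and not for ROR elements in general. Per2 had the variant E-box at -62 and the D-box at -192, motifs present in 4.83% and 0.893% of promoters. The E-box, present in 6.42%, lay at -191 in the Nr1d1 entry shown and at -198 in Tef, and the other Nr1d1 entry had the variant E-box at -174. The windows of Clock, Npas2, Per1, Per3 and Dbp held none of the motifs searched. Other letters sought in the members' windows were TTATGCAA (0.863% of promoters), TTACGTAA (0.12%), the palindromic glucocorticoid receptor element (0.0149%) and TGACGTCA, a cAMP element (1.83%), with no match. These are matches of letters and not measured binding. Sequence outside the windows and other forms of the elements were not searched, so a window without a match does not show that the gene lacks them.

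Values are processed signals as log2 minus the log2 of the 75th percentile of the array, called relative log2 signals. That percentile lay between 1127 and 1179 in corn oil and between 1281 and 1308 after ADBAQ. Array-to-array correlation across genes, which are not independent replicates, was 0.988 to 0.994 over all pairs. Since each group lay on a slide of its own and was scanned on its own, treatment cannot be told apart from slide or scan. All 5 proximal tubule and all 4 podocyte markers, which define the renal cortex, were well above background on all 6 arrays. None of them passed the test described below, nor did a tested marker of the thick limb, distal tubule, collecting duct, endothelium, leukocytes, fibroblasts or fat. Some of these markers still did not overlap between groups, as in 27.6% of all genes. Itgam (log2 difference 1.27, well above background in 1 of 3 controls), Slc4a1 (0.62) and Calb1 (0.51) were higher after ADBAQ. Col1a1 (-0.62), Lrp2 (-0.18) and Slc22a6 (-0.16) were lower, and the remaining tested markers of these types overlapped. All 3 red cell markers were higher after ADBAQ, with a summed signal of 317 to 367 times the array's percentile against 159.5 to 175 times in corn oil. Of the adrenal gland markers, Star and Cyp11b1 were not well above background in all rats of either group. Cyp11a1 was well above background in 3 of 3 controls and 1 of 3 treated rats, with a log2 difference of -1.01. Th was well above background in all 6 rats and higher after ADBAQ by 0.27, without overlap. Neither Cyp11a1 nor Th passed the test. Whether red cell or other content had a part in the clock values was not tested. In whole tissue, fewer cells of a type and less RNA per cell cannot be told apart.

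No clock gene passed the threshold between groups, which was an adjusted p under 0.05 in limma's test after Benjamini-Hochberg correction over the 12007 genes. Of all genes tested 0.291% passed, 0.225% as higher and 0.0666% as lower after ADBAQ. These were 27 and 8 genes, and without scaling between arrays, which moved the median of all genes to 0.15, they were 1027 and 54. Of the 10 members, 4 had an unadjusted p under 0.05 (19.4% of all genes did): Per1, Clock, Per3 and Cry1. In 5 members the 3 treated rats did not overlap the 3 controls, as in 27.6% of all genes, with Clock, Per3 and Cry1 on the higher side (12.7% of all genes) and Per1 and Tef on the lower (14.9%). The median difference, ADBAQ minus corn oil, was 0.078 on the log2 scale over the members and -0.011 over all genes tested. The 6 positive and 4 negative differences thus had no common sign, and that of Per1 was by far the largest.

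**Figure D1:**
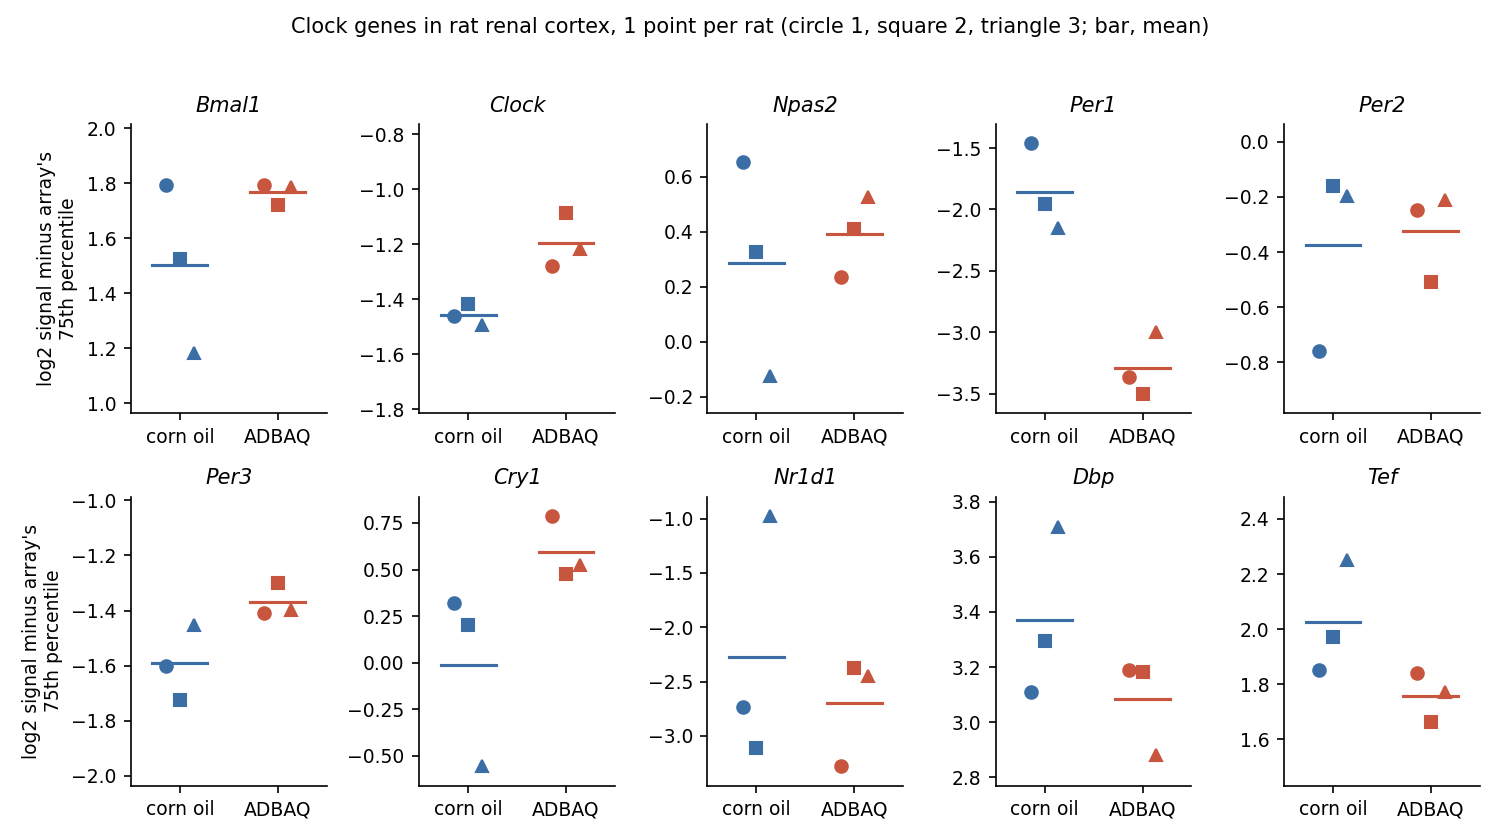
Relative log2 signal (vertical axes, each with its own range) of the 10 clock genes in 3 corn oil rats (blue) and 3 ADBAQ rats (red), 1 point per rat, with circles, squares and triangles for replicates 1, 2 and 3 and bars for means. Per1 separates the groups most widely. Corn oil replicate 3 lies far from the other controls in Nr1d1 and Cry1. In Npas2, Bmal1 and Dbp the controls are spread, with replicates 1 and 3 at the ends.

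Among the activators, Bmal1 encodes the partner without which the tissue clock stops. Its relative log2 signals were 1.79, 1.53 and 1.18 in corn oil replicates 1, 2 and 3 and 1.79, 1.72 and 1.79 in ADBAQ replicates 1, 2 and 3. The treated rats were nearly identical, and the controls ran from the treated level down to replicate 3. The difference of 0.27 ± 0.15 SE (n = 3 per group, 95% interval -0.11 to 0.65) did not pass limma's test (adjusted p = 0.39). A second probe of Bmal1 gave a difference of 0.34 and the same order of the controls.

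Clock encodes the histone acetyltransferase partner of BMAL1. Its relative log2 signals were -1.46, -1.42 and -1.49 in corn oil and -1.28, -1.09 and -1.22 after ADBAQ. The groups did not overlap, and the controls were tightly bunched. The difference was 0.26 ± 0.070 SE (95% interval 0.090 to 0.44, limma adjusted p = 0.15), and 3 of 3 probes were higher, by 0.23 to 0.42. Without scaling Clock passed, at 0.43 (adjusted p = 0.038 in limma, 0.038 to 0.34 over the alternatives). Npas2, which can stand in for CLOCK, had signals of 0.65, 0.32 and -0.12 in corn oil and 0.23, 0.41 and 0.53 after ADBAQ. All treated rats lay within the range of the controls, and the difference was 0.10 ± 0.20 SE (limma adjusted p = 0.80). Its 3 probes disagreed: differences ran from -0.014 to 0.11, and the 1 probe with the value -0.014 varied little in any rat.

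Per1, a Period repressor and an early responder to hormones, had the largest difference of the 10. Its relative log2 signals were -1.46, -1.96 and -2.15 in corn oil and -3.36, -3.50 and -3.00 after ADBAQ. Every treated rat lay below every control. As processed signals before scaling these were 424, 303 and 254 against 127, 115 and 160. The difference was -1.43 ± 0.22 SE, or 2.70-fold (n = 3 per group, 95% interval -1.96 to -0.90), with an adjusted p of 0.070 in limma's test, and 0.583% of all genes tested had a larger one.

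The second Per1 probe also placed all treated rats below the controls, at -0.48 ± 0.15 SE (limma adjusted p = 0.19 over 42256 probes, of which 0.248% passed). The probes thus gave 1 direction and sizes far apart. The adjusted p of Per1 fell under the threshold with normexp background correction (difference -1.02, adjusted p = 0.044), with an intensity trend and robust variances (adjusted p = 0.040) and without scaling (-1.27, adjusted p = 0.038). It ranged from 0.038 to 0.23 over 16 alternatives.

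**Figure D2:**
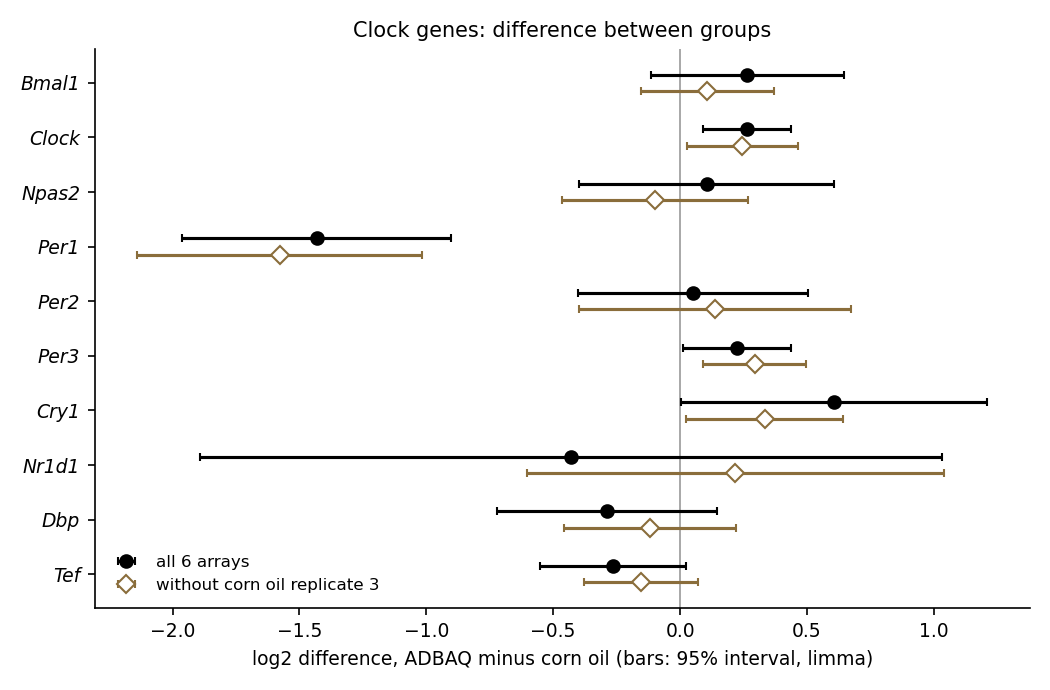
Log2 difference, ADBAQ minus corn oil (horizontal axis), of the 10 clock genes with 95% intervals from limma, from all 6 arrays (black circles) and without corn oil replicate 3 (open diamonds). Per1 lies at -1.43 and -1.58, while Nr1d1 and Npas2 cross 0 when that rat is left out.

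The other Period genes did not share the size of the Per1 difference. Per2, whose protein is a central clock repressor, had relative log2 signals of -0.76, -0.16 and -0.20 in corn oil and -0.25, -0.51 and -0.21 after ADBAQ. The groups overlapped, and corn oil replicate 1 alone was low. The difference was 0.051 ± 0.18 SE (95% interval -0.40 to 0.51, limma adjusted p = 0.90), an interval that does not reach the Per1 value. Its sign turned when corn oil replicate 1 was left out (-0.14) or ADBAQ replicate 3 was (-0.0047).

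Per3, a Period gene less needed for rhythm itself, had signals of -1.60, -1.72 and -1.45 in corn oil and -1.41, -1.30 and -1.40 after ADBAQ. The groups did not overlap but nearly touched, and the difference was 0.22 ± 0.086 SE (limma adjusted p = 0.24). Of its 5 probes, 3 were tested, and the differences were 0.22, -0.015 and 0.40, so they did not share a direction. Without scaling Per3 also passed, at 0.39 (limma adjusted p = 0.041, 0.041 to 0.71 over the alternatives).

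Cry1, the Cryptochrome repressor, had relative log2 signals of 0.32, 0.20 and -0.56 in corn oil and 0.79, 0.48 and 0.52 after ADBAQ. All treated rats lay above all controls, and corn oil replicate 3 was far below the rest. The difference was 0.61 ± 0.25 SE, or 1.52-fold (95% interval 0.0035 to 1.21, limma adjusted p = 0.25), from 1 probe.

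Nr1d1, the repressor of Bmal1, was the most variable member and was read by 1 probe only. Its signals were -2.73, -3.11 and -0.98 in corn oil and -3.28, -2.37 and -2.45 after ADBAQ. Corn oil replicate 3 stood above all 5 other rats, whose values were mixed between groups. The difference of -0.43 ± 0.59 SE had an interval from -1.89 to 1.03 (limma adjusted p = 0.72), so these 6 rats set no useful limit on it.

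Dbp and Tef encode transcription factors that act on D-boxes in output genes. For Dbp the relative log2 signals were 3.11, 3.30 and 3.71 in corn oil and 3.19, 3.18 and 2.88 after ADBAQ. The groups overlapped at their middle values, with the highest rat a control and the lowest a treated rat. The difference was -0.29 ± 0.18 SE (limma adjusted p = 0.41), and 4 of 4 probes were lower, by -0.47 to -0.29. For Tef the signals were 1.85, 1.97 and 2.25 in corn oil and 1.84, 1.66 and 1.77 after ADBAQ. The groups did not overlap but differed by little at the edge. The difference was -0.27 ± 0.12 SE (limma adjusted p = 0.28), and a second probe gave -0.40.

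The clock genes also differed among the control rats. Corn oil replicate 3 was the highest control in Nr1d1, Dbp, Tef and Per3 and the lowest in Bmal1, Npas2, Cry1, Per1 and Clock. It was at an end of its group in 9 of 10 members, as in 64.2% of all genes tested. These departures were noticed in the data and are given as a description, with no test.

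Against the mean of replicates 1 and 2, the Nr1d1 signal of replicate 3 was 3.85 times as high, at 573 against 176 and 137 before scaling. Only 0.508% of genes tested departed further in that rat. Dbp was higher by 0.51 on the log2 scale and Tef by 0.34. Cry1 was lower, at -0.82, as were Npas2 at -0.61 and Bmal1 at -0.47. The repressor Nr1d1 and the outputs Dbp and Tef thus lay high in this rat, and Bmal1, Npas2 and Cry1 low.

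Single probes were then counted, with the genes grouped by the place of replicate 3 on the probe that represents each. Those probes are among the ones counted, so their place was fixed in advance. Per2, where replicate 3 lay between the other controls, is in neither group. Corn oil replicate 3 was the highest control on 12 of 12 probes of Nr1d1, Dbp, Tef and Per3, including 2 Per3 probes too near background to be tested. It was the lowest on 8 of 11 probes of Bmal1, Npas2, Cry1, Per1 and Clock, the exceptions being 1 probe of Npas2 and 2 of 3 probes of Clock. Probes of 1 gene share their RNA and are not replicates. For Per3 the tested probes differed in size, and put the rat 0.21, 0.98 and 1.53 above the mean of the other controls.

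**Figure D3:**
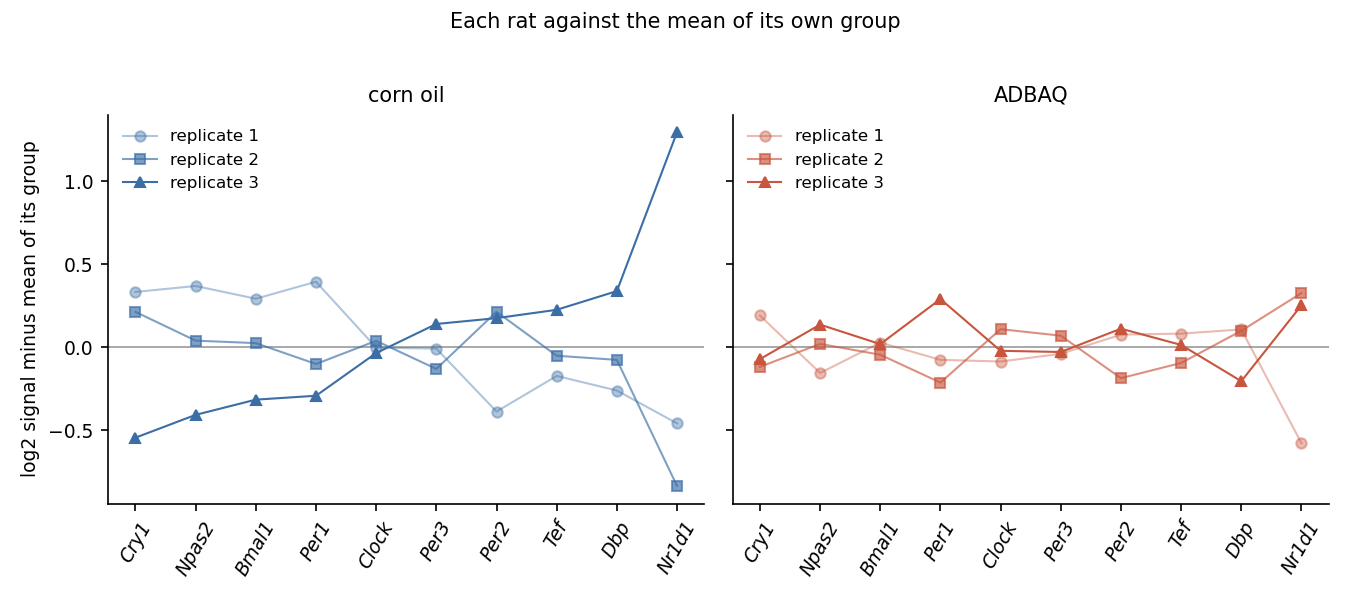
Relative log2 signal of each rat minus the mean of its own group (vertical axis) for the 10 clock genes, ordered by corn oil replicate 3, in corn oil (left) and ADBAQ (right). Replicate 3 of corn oil runs from -0.55 in Cry1 to 1.30 in Nr1d1 with replicate 1 on the other side for most genes, while the ADBAQ rats spread most in Nr1d1 (SD 0.50) and Per1 (SD 0.26).

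The array of that rat did not stand apart as a whole. Its median absolute departure from the other controls was 0.106 over all genes tested, within the 0.092 to 0.12 seen over the 6 arrays. Over the 10 members it was 0.46, and corn oil replicate 1 had 0.47, against 0.13 to 0.16 in the other 4 rats. Replicate 2 of corn oil lay between the other controls in Bmal1, Npas2, Per1, Cry1, Dbp and Tef.

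The treated rats were closer to each other than the controls in 9 of 10 members, Clock being the exception. Over all genes tested, 55.5% had the larger SD in corn oil. The median SD of the members was 0.32 in corn oil and 0.15 after ADBAQ, against 0.11 and 0.099 over all genes. For Bmal1 the SD was 0.30 in corn oil and 0.040 after ADBAQ. For Nr1d1 it was 1.14 and 0.50, larger than in 99.2% and 96.2% of genes. The difference in spread between the groups was not tested.

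Without corn oil replicate 3 the difference was 0.22 ± 0.32 SE for Nr1d1 and -0.099 ± 0.14 for Npas2, both of the opposite sign to the values from 6 arrays. Those of Bmal1, Cry1, Dbp and Tef shrank to 0.11, 0.33, -0.12 and -0.15. Those of Clock and Per3 were 0.24 and 0.29. Per1 was at -1.58 ± 0.22 SE (limma adjusted p = 0.13). None of the 10 passed the threshold without this rat. The groups did not overlap in 5 (Clock, Per3 and Cry1 higher, Per1 and Tef lower), as in 37% of all genes with 2 controls against 3 treated rats.

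Corn oil replicate 1 departed from the other controls about as far, and without it values shifted the other way. The difference was then 0.41 for Bmal1, 0.77 for Cry1, 0.29 for Npas2, -0.42 for Dbp, -0.35 for Tef and -0.66 for Nr1d1. That of Per1 was -1.23, and no member passed (limma adjusted p from 0.12 to 0.64).

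**Figure D4:**
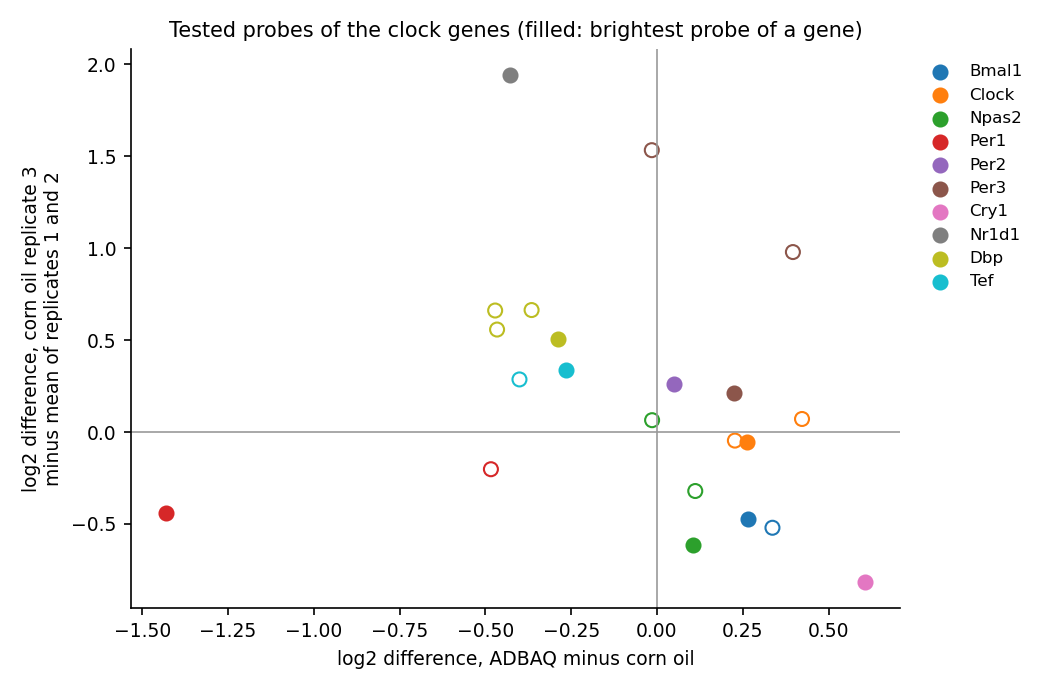
The 22 tested probes of the clock genes by log2 difference between ADBAQ and corn oil (horizontal axis) and by log2 difference of corn oil replicate 3 from the mean of corn oil replicates 1 and 2 (vertical axis), with filled points for the probe that represents each gene. The 4 Dbp and 2 Tef probes lie at the upper left, the 2 Bmal1 probes at the lower right, and the 2 Per1 probes at the lower left. Corn oil replicate 3 enters the axes with opposite signs, which by itself draws probes towards the upper left and lower right.

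Beyond the 10 members, 29 other genes of the clock machinery were listed, of which 18 had a matched probe and 17 were tested. None reached the threshold in limma's test, where 3 of 17 had an unadjusted p under 0.05, against 19.4% of all genes. The median difference was -0.039. The groups did not overlap in 2 genes on the higher side and 2 on the lower, against 12.7% and 14.9% of all genes. The Bmal1 paralog Bmal2 had the smallest p, at 0.29 ± 0.084 SE (limma adjusted p = 0.16), with no overlap between groups. The Cryptochrome Cry2, at -0.15 ± 0.057, lay opposite in sign to Cry1 and also without overlap. Timeless, a replication fork protein related to the fly clock gene, had 0.34 ± 0.14, also without overlap. Nr1d2, encoding REV-ERBbeta, had -0.64 ± 0.27 with overlap, and corn oil replicate 3 was its highest rat, as for Nr1d1. The kinases Gsk3b and Csnk1d, which phosphorylate clock proteins, had -0.13 ± 0.069 with overlap and -0.088 ± 0.056 without. Adjusted p values of the last 5 lay between 0.24 and 0.42 in limma's test.

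Genes known to follow the clock in kidney or liver gave no common direction either. All 25 listed were tested, and in limma's test 0 reached the threshold and 6 had an unadjusted p under 0.05, against 19.4% of all genes. The median difference was 0.0095. Groups were without overlap in 3 genes on the higher side and 2 on the lower, against 12.7% and 14.9% of all genes. Sgk1, the kinase that supports the epithelial sodium channel, had a difference of -1.36 ± 0.18 SE (limma adjusted p = 0.055). Its relative log2 signals were 3.16, 3.40 and 3.09 in corn oil and 1.61, 1.74 and 2.22 after ADBAQ, with no overlap. Tsc22d3, the glucocorticoid-induced leucine zipper, had -0.47 ± 0.095 (adjusted p = 0.11 in limma's test).

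Nampt, an enzyme of NAD synthesis and an E-box target, had 0.38 ± 0.096 SE, and the vasopressin receptor Avpr1a had 0.43 ± 0.12. Their limma adjusted p values were 0.14 and 0.16, and neither gene overlapped between groups. Herpud1, of protein degradation in the endoplasmic reticulum, had -0.51 ± 0.19, and the carboxylesterase Ces2c had 0.36 ± 0.14 (limma adjusted p = 0.24 and 0.25).

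Per1 is also a target of the glucocorticoid receptor, and most genes of that list lay lower after ADBAQ. Of 18 genes, 17 were tested, 14 of them with a negative difference, against 6280 of the 12007 genes tested. Some of these differences were very small, at -0.0085, -0.0096 and -0.062. In limma's test over all genes 3 were lower and 0 higher, against 0.0666% and 0.225% of all genes. The groups did not overlap in 7, all on the lower side, against 14.9% of all genes on that side and 12.7% on the higher. The median difference was -0.36, also with Zbtb16 at its bound. Sgk1 and Tsc22d3, given above, belong to this list too, as does Pdk4 (-0.0085), also a listed output gene. The list was chosen with earlier results of these data known, so its direction is a description. Whether it has to do with the Per1 difference was not tested.

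Mt1 and Mt2A, metallothioneins that bind zinc and copper, fell by 0.80 ± 0.086 SE and 0.73 ± 0.078 (limma adjusted p = 0.038 for each). When 1 array was left out, the call of Mt1 was lost in 6 of 6 cases (adjusted p = 0.060 to 0.15), and that of Mt2A in 5 of 6, the exception being ADBAQ replicate 3 (adjusted p = 0.036). The transcription factor Zbtb16 was lower by at least 2.67-fold (limma adjusted p = 0.0065), its probe being not well above background in any treated rat. When corn oil replicate 1 or ADBAQ replicate 2 was left out, another probe stood for the gene and the call was lost, at -1.83 (adjusted p = 0.43) and -0.43 (adjusted p = 0.90). The first probe then had -2.44 and -2.47 (limma adjusted p = 0.041 and 0.073 over probes). Ddit4, an inhibitor of mTOR signalling, had -1.06 ± 0.20 (adjusted p = 0.10), with no overlap.

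**Figure D5:**
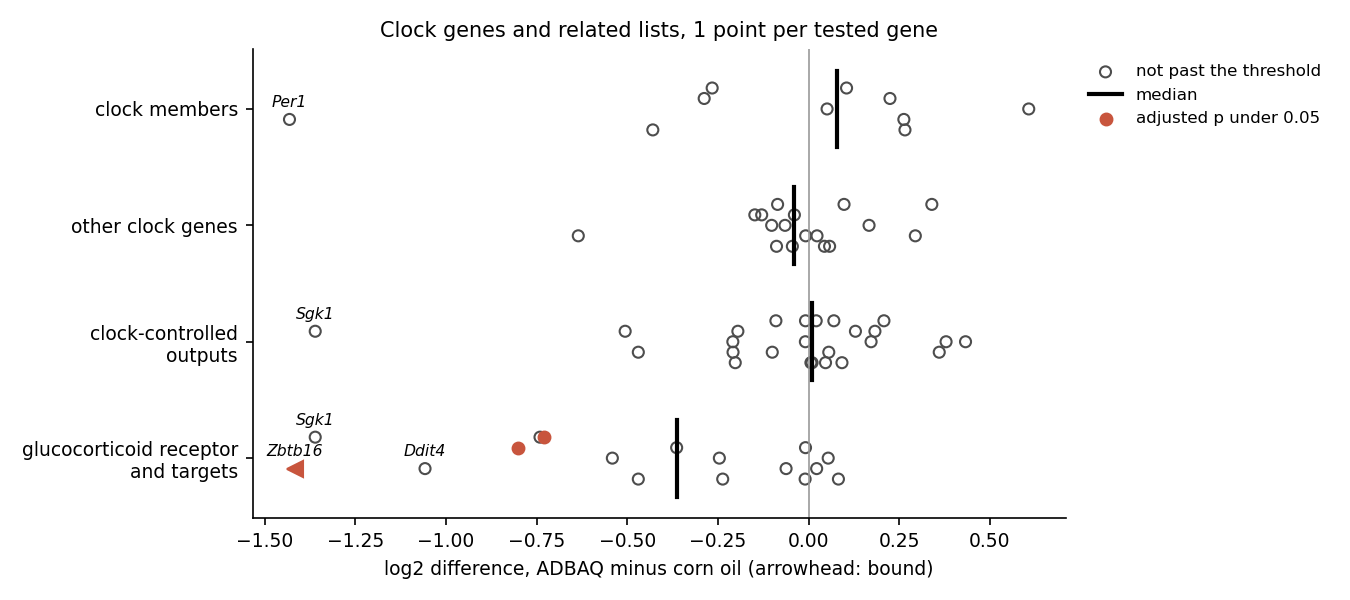
Log2 difference, ADBAQ minus corn oil (horizontal axis), of each tested gene in the 10 clock members and in 3 related lists, with black bars for medians and red for genes past the threshold. The medians are 0.078, -0.039, 0.0095 and -0.36 from top to bottom. Sgk1, Tsc22d3 and Pdk4 appear in both lower lists, and the arrowhead places Zbtb16 at its bound.

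The genes whose 6 values were most like those of Dbp were Wdfy2, Ccl4, Ppp1r2l1, Traf4 and Fgfr2, with Pearson r of 0.998, 0.997, 0.985, 0.981 and 0.980. The search covered 11688 genes well above background on all 6 arrays. Those most like Bmal1 were Naaa, Lztfl1, Klf12, Pde3b and Ccne2, with r of 0.988, 0.982, 0.981, 0.978 and 0.978. None of these 10 was in a clock list above. In each the corn oil rat at the end was replicate 3, highest for those like Dbp and lowest for those like Bmal1. That follows from their selection by likeness to Dbp or Bmal1 and adds nothing about this rat. With 6 arrays in 2 groups these coefficients are a description of shape.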

How the data were processed

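Total RNA of the renal cortex of 6 rats was labelled with Cy3 and read on Agilent arrays of 62976 spots, per the labels' protocols. Feature Extraction 10.7.1.1, per the file headers (10.7 per the submitters' processing notes), quantified the spots and subtracted background. The deposited columns hold, per the file headers, processed signal intensity on a linear scale, the median intensity of spot and background, and other values such as flags. A deposited value table by the authors, set against the scanner values, holds each processed signal as a ratio to a constant within 0.145% of the array's 75th percentile, on a linear scale and not centred, with column medians of 0.111, 0.113 and 0.112 in corn oil and 0.113, 0.114 and 0.111 in ADBAQ. It served as an alternative.

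Here 1319 control spots and 73 probes flagged as outliers were left out, each log2 signal had the log2 of its array's 75th percentile subtracted, and 42256 probes were tested, those that all 3 arrays of either group measured well above background. Accessions were matched to RefSeq transcripts (GRCr8, used for symbols), and 27460 probes (44.5%) matched. The probe with the highest mean stood for its gene. ADBAQ was set against corn oil in limma 3.58.1, run in R 4.3.3 (lmFit, eBayes, two-sided, Benjamini-Hochberg, threshold 0.05), tested on simulated data, with 3 rats per group limiting the precision; a permutation test of 3 against 3 cannot reach that threshold. Python 3.11.15, pandas 2.3.3 and matplotlib 3.10.9 were also used. For a probe not well above background in a group, the bound sets the brighter mean against, per array, the higher of that probe's own signal and the array's dimmest signal called well above background. Named genes were the 10 members, up to 6 genes of each related list (those past the threshold, then the smallest p), and the 5 genes most correlated with Dbp and with Bmal1. Pdk4 is also named because it is in both the output list and the glucocorticoid list. The members, lists and rules were chosen with earlier results of these data known.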

Additional observations from a re-analysis of the deposited data

How the results depend on the processing

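With 3 arrays a group, signal near background and the departures of corn oil replicates 1 and 3 limit several values. No member changed direction under another scaling, background correction, filter or probe rule. When 1 array was left out, differences ran from -0.099 to 0.29 for Npas2, from -0.85 to 0.22 for Nr1d1 and from -0.14 to 0.16 for Per2, each crossing 0, and over all genes 8 to 27 were called higher and 1 to 10 lower, against 27 and 8 from 6 arrays, while the members stayed at 0 and 0. The counts over all genes were 12 and 4 without corn oil replicate 1, 16 and 8 without 2, 15 and 9 without 3, 27 and 5 without ADBAQ replicate 1 and 8 and 1 without 2. Without scaling the counts over all genes were 1027 and 54, and 2 members, Clock and Per3, passed as higher and 1, Per1, as lower; among the members' probes 3 were higher and 1 lower. Over all genes 67 and 79 passed with normexp and 72 and 84 with limma's trend and robust options, each with 1 member and 1 member probe, of Per1, lower. Without the detection filter 4 genes were lower. The cause was not tested. The replicate number as a block gave 0 and 0 over all genes in limma, where 2269 had an unadjusted p under 0.05, and 0 members. The numbers are not known to pair rats: same-numbered deviations correlated at 0.0094, 0.16 and 0.035, and corn oil replicate 3 correlated best with ADBAQ replicate 1.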
